A study of Homo sapiens with 19 samples.

Results

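Transcripts of 6 genes of the BCL2 family and of BIRC5 (survivin) were followed in MDA-MB-231 cells, an established human line of triple-negative breast cancer, after depletion of STAT3 or HMGN5. The 7 members were the Ensembl transcripts that a selection list assigns to BCL2L1 (ENST00000307677), MCL1 (ENST00000369026), BIRC5 (ENST00000350051), BAX (ENST00000345358), BAK1 (ENST00000374467), PMAIP1 (ENST00000316660) and BCL2L11 (ENST00000393256), 1 for each gene, out of 175775 transcripts in each deposited table. All 7 were found and all 7 passed the filter on low counts in every comparison. Poly(A) RNA was sequenced from 17 libraries in 6 groups. In the siRNA experiment, cells received HMGN5 siRNA (siHMGN5, 2 libraries), STAT3 siRNA (siSTAT3, 2 libraries) or control siRNA (NC, 4 libraries), with no vector. In the lentiviral experiment, cells received STAT3 siRNA with a lentivirus carrying HMGN5 (siSTAT3_HMGN5, 3 libraries), STAT3 siRNA with the control vector (siSTAT3_Vec, 3 libraries) or control siRNA with the control vector (NC_Vec, 3 libraries). All cells were transfected with 30 nM siRNA, and the number and sequence of the siRNAs and the promoter of the vector are not given in the sources used here. H3K27ac profiles of the control siRNA and HMGN5 siRNA cells are not analysed here.

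The BCL2 family controls the mitochondrial step of apoptosis. BAX and BAK1 are the effectors that open pores in the outer mitochondrial membrane. BCL2L1 (whose long product is BCL-XL) and MCL1 hold them in check, and the BH3-only proteins PMAIP1 (NOXA) and BCL2L11 (BIM) bind the guardians, NOXA with a preference for MCL1. BIRC5 belongs to the inhibitor of apoptosis family and also serves in the chromosomal passenger complex during mitosis, so its mRNA is high in dividing cells. BCL2L1, MCL1 and BIRC5 have been described as targets of STAT3 in tumour cells.

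On the GRCh38.p14 annotation of RefSeq, the genes of the guardians lie at chr20:31664452-31723963 (BCL2L1) and chr1:150574558-150579610 (MCL1), and BIRC5 lies at chr17:78214253-78225635. BAX lies at chr19:48954875-48961798 and BAK1 at chr6:33572552-33580276. PMAIP1 lies at chr18:59899996-59904305 and BCL2L11 at chr2:111120914-111168445. The RefSeq promoter table (250 bases before to 50 after a gene's start, build GRCh38.p14) held 6 windows for 5 of the members, 2 of them for BCL2L1. The 250 bases before the start of PMAIP1 (chr18:59899746-59899995, plus strand) and BAK1 (chr6:33580277-33580526, minus strand) are shown because these 2 transcripts had the largest called changes in the lentiviral experiment. Capitals mark a match to TGACG on either strand, the core of a cyclic AMP response element.
PMAIP1: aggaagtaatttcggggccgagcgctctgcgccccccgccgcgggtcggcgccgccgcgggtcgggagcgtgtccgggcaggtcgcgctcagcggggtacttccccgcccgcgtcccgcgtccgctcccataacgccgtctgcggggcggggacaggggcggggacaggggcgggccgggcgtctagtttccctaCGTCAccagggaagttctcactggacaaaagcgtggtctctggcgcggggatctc
BAK1: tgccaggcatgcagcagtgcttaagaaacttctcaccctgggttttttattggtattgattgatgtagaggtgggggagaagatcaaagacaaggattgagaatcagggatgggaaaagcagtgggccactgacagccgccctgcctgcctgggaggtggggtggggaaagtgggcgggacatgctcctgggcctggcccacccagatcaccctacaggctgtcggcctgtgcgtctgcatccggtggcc
The STAT element TTCNNNGAA, searched on both strands, had 0 matches in the 6 windows, and 7.66% of 35116 promoter windows of this length hold it. MCL1 and BIRC5 had no window, so their promoters were not searched. TGACG is held by 24.6% of all windows; it was found at position -55 from the start of PMAIP1, at -201 from that of BCL2L1 and at -134 from that of BAX, and not in the BAK1 window. The E-box CACGTG, held by 7.26% of all windows, was found 4 times in the BAX window, and its copy at position -138 overlaps the TGACG match there. These are letter matches in short windows and carry no information on binding.

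Depth ran from 19114033 to 19509422 estimated reads a library in the siRNA experiment and from 22500086 to 23047081 in the lentiviral one. Values are CPM, counts scaled by library size, with TMM (trimmed mean of M values) factors over all 17 libraries. On this scale 3 reads were worth 0.146 to 0.158 CPM in libraries of the siRNA experiment, and 0.133 to 0.139 CPM in the others. The NC libraries fell into 2 pairs: over the 15856 transcripts that averaged 10 CPM or more, the median absolute log2 difference was 0.343 to 0.351 between the pairs (replicates 1 and 2 against 3 and 4), against 0.146 to 0.168 inside them, and 0.126 to 0.185 among libraries of any other group. Results against NC are therefore also given against each pair. Whether replicates are separate cultures is not stated in the labels, and p-values cover only the spread seen among these libraries, which could be technical. The files pair no transcript with a gene, so the levels of STAT3 and HMGN5, of other apoptosis genes and of markers of the cell line were not checked. In no library with reads did any of the 7 estimates come out whole (within 0.0015), so each shares reads with other transcripts through a model, and a change can be a shift between transcripts of 1 gene. In bulk RNA, fewer cells that express a gene and less RNA per cell cannot be told apart.

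Levels of different members were compared per kilobase of effective length. In the lentiviral experiment BCL2L1 and MCL1 were highest, at 160 ± 11.4 and 119 ± 1.96 CPM per kb in NC_Vec (SD, n = 3). PMAIP1 followed at 33.8 ± 1.01, BAK1 at 24.3 ± 2.74 and BIRC5 at 11.4 ± 2.43 CPM per kb. BAX and BCL2L11 were far lower, with BAX at 1.52 ± 0.776 CPM per kb and BCL2L11 listed at 0 in 1 of the 3 libraries, and their order is not resolved by the spread. In NC of the siRNA experiment BCL2L1 and MCL1 again led at 81.2 ± 12.7 and 71.9 ± 3.77 CPM per kb (SD, n = 4), a difference within the spread of BCL2L1. There BIRC5 came next at 24.3 ± 2.05 CPM per kb, and BAK1 at 15.7 ± 7.69 and PMAIP1 at 13.02 ± 0.9998 overlapped. BAX had 4.3 ± 2.21 and BCL2L11 1.59 ± 0.441 CPM per kb.

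**Figure D1:**
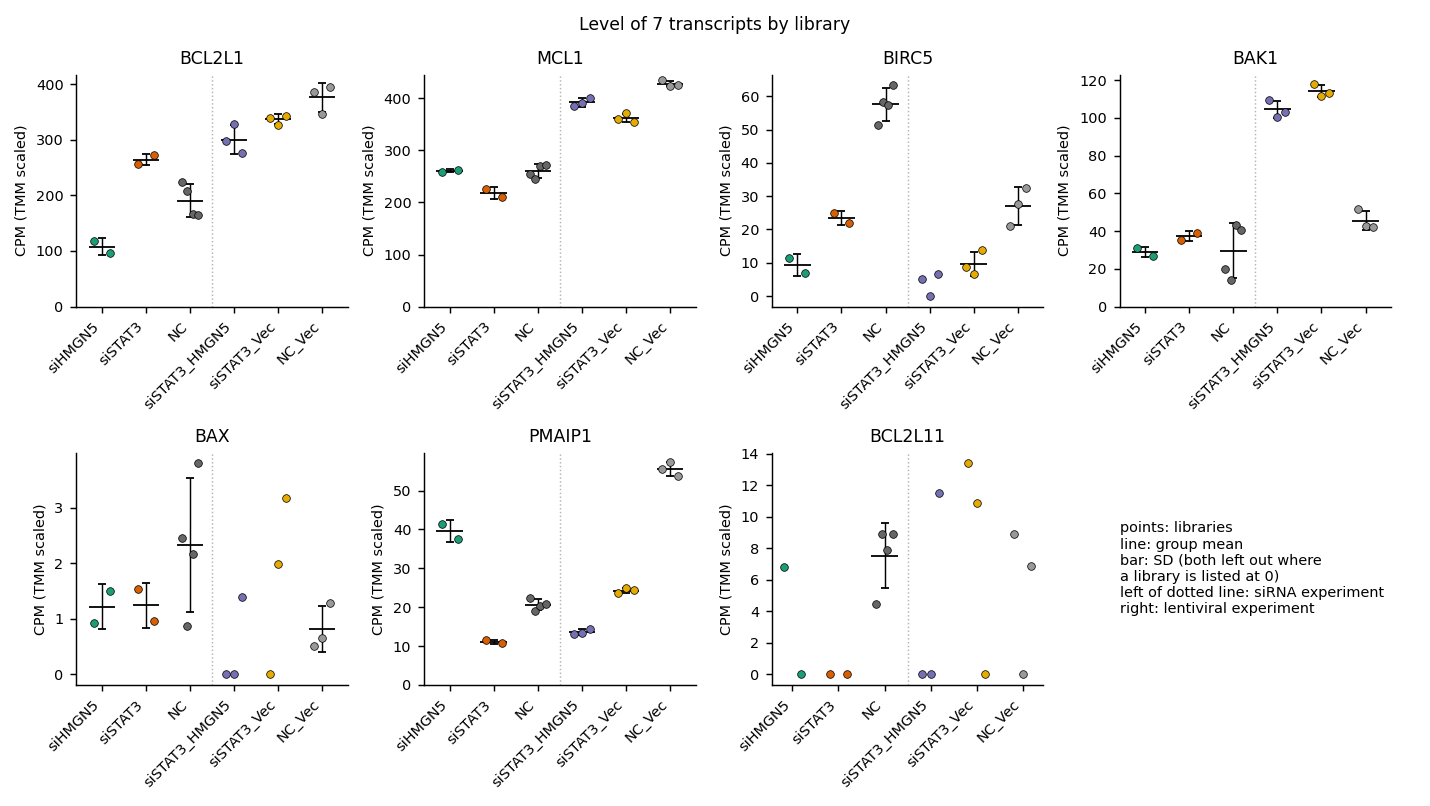
Level of each transcript in CPM (TMM scaled over 17 libraries, vertical axes from 0 or just below) by group, with 1 point a library, the group mean as a line and the SD as a bar, both left out where a library is listed at 0. PMAIP1 lies at 13.1 to 14.4 CPM in siSTAT3_HMGN5, 23.5 to 24.8 in siSTAT3_Vec and 53.8 to 57.4 in NC_Vec, with no overlap, while the NC libraries of BAK1 part into 2 pairs.

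PMAIP1, the gene of the BH3-only protein NOXA, changed in every one of the 6 comparisons, and in opposite directions after the 2 knockdowns. It had 41.5 and 37.7 CPM in siHMGN5 and 11.5 and 10.7 CPM in siSTAT3, against 22.4, 18.97, 20.2 and 20.9 CPM in NC. Every siHMGN5 library lay above the 4 NC libraries and every siSTAT3 library below them. The rise in siHMGN5 was 1.96-fold (log2 fold change 0.97 ± 0.11, SE; edgeR quasi-likelihood test with Benjamini-Hochberg adjustment over all transcripts, adjusted p = 0.00945). The fall in siSTAT3 was 1.83-fold (log2 fold change -0.87 ± 0.12, adjusted p = 0.0137). Set directly against siHMGN5, siSTAT3 was 3.58-fold lower (log2 fold change -1.84 ± 0.14, adjusted p = 0.00256). Against either NC pair alone, the log2 fold changes of PMAIP1 were 0.96 and 0.98 in siHMGN5 and -0.88 and -0.88 in siSTAT3 (adjusted p 0.0133 to 0.0319). The calls against NC ended when either siHMGN5 library (adjusted p = 0.0897 and 0.062) or either siSTAT3 library (0.093 and 0.119) was left out, where the single library kept was taken to vary as the rest do.

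In the lentiviral experiment PMAIP1 fell with STAT3 siRNA and was lower again with ectopic HMGN5. It had 13.1, 13.4 and 14.4 CPM in siSTAT3_HMGN5, 23.5, 24.8 and 24.4 CPM in siSTAT3_Vec, and 55.5, 57.4 and 53.8 CPM in NC_Vec. The 3 groups did not overlap. siSTAT3_Vec was 2.29-fold lower than NC_Vec (log2 fold change -1.20 ± 0.06, adjusted p = 2.85e-05), and siSTAT3_HMGN5 was 1.78-fold lower than siSTAT3_Vec (log2 fold change -0.83 ± 0.06, adjusted p = 0.001). Against NC_Vec, siSTAT3_HMGN5 was 4.07-fold lower (log2 fold change -2.03 ± 0.06, adjusted p = 2.25e-06). These 3 comparisons share libraries pairwise, so they are not independent of each other. The 3 calls held in each of the 11 alternatives run for each. The fall with STAT3 siRNA was not shown to differ between the experiments (difference of log2 fold changes, siRNA minus lentiviral, 0.31 ± 0.12, adjusted p = 0.179 in a fit of all 17 libraries). That difference was called in 1 of 17 alternatives, DESeq2 (0.31, adjusted p = 0.0469).

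The other BH3-only gene, BCL2L11, varied widely between libraries of 1 group. Its transcript had 4.49 to 8.88 CPM in the 4 NC libraries, 6.81 and 0 CPM in siHMGN5, and was listed at 0 in both siSTAT3 libraries. In the lentiviral experiment it had 0, 0 and 11.5 CPM in siSTAT3_HMGN5, 13.4, 10.9 and 0 CPM in siSTAT3_Vec, and 8.91, 0 and 6.9 CPM in NC_Vec. Libraries thus ran between 0 and over 100 estimated reads, as with 139.9 and 0 reads in siHMGN5. No comparison passed the edgeR test with all libraries (adjusted p of at least 0.163), and no fold is given where a group is at 0. For siSTAT3 against NC, where the groups do not overlap, the test was passed with only these 2 groups in the fit (adjusted p = 0.0131) and with DESeq2 (adjusted p = 0.000162). For siSTAT3 against siHMGN5 it was passed with DESeq2 (adjusted p = 0.00378) and without siHMGN5 replicate 2 (adjusted p = 0.0248). Lower values in siHMGN5 against NC were called only without siHMGN5 replicate 1 (adjusted p = 0.0448), which leaves the library listed at 0.

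BAK1, an effector of pore formation, rose with STAT3 siRNA in the vector cells. It had 109.7, 101 and 103 CPM in siSTAT3_HMGN5 and 118, 112 and 113 CPM in siSTAT3_Vec, against 51.6, 42.8 and 42.4 CPM in NC_Vec. All 6 STAT3 siRNA libraries lay above all 3 NC_Vec libraries. The rise was 2.51-fold in siSTAT3_Vec (log2 fold change 1.33 ± 0.08, adjusted p = 6.96e-05) and 2.3-fold in siSTAT3_HMGN5 (log2 fold change 1.20 ± 0.08, adjusted p = 5.37e-05), both against NC_Vec. Ectopic HMGN5 gave no called difference from siSTAT3_Vec (log2 fold change -0.13 ± 0.08, adjusted p = 0.556). Both calls held in all 11 alternatives, with log2 fold changes of 1.26 to 1.43 and 1.13 to 1.30.

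In the siRNA experiment the level of BAK1 followed the NC pairs. It had 30.95 and 27.01 CPM in siHMGN5 and 35.5 and 39.1 CPM in siSTAT3, against 20.1 and 14.3 CPM in NC replicates 1 and 2 and 43.3 and 40.5 CPM in NC replicates 3 and 4. All 4 knockdown libraries lay between the 2 pairs. With all NC libraries, the log2 fold change was 0.00 ± 0.45 in siHMGN5 (adjusted p = 1.0) and 0.36 ± 0.44 in siSTAT3 (adjusted p = 0.791). Against NC replicates 1 and 2 alone it was 0.77 and 1.13 (adjusted p = 0.13 and 0.0503), and against NC replicates 3 and 4 alone it was -0.50 and -0.16 (adjusted p = 0.0644 and 0.459), so the sign of the value depended on the pair. The STAT3 siRNA effect on BAK1 was not shown to differ between experiments with all libraries (difference -0.99 ± 0.46, adjusted p = 0.286). Without NC replicates 1 and 2 that difference was -1.49 (adjusted p = 3.1e-05), and without NC replicate 2 it was -1.22 (adjusted p = 0.0471). Without NC replicates 3 and 4 it was -0.21 (adjusted p = 0.675), so its size depended on the NC pair kept.

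The transcript of BAX, the other effector, was low and listed at 0 in 3 libraries of the lentiviral experiment. It had 0.928 and 1.5 CPM in siHMGN5 and 1.53 and 0.962 CPM in siSTAT3, against 0.864 to 3.8 CPM in NC. It had 0, 0 and 1.39 CPM in siSTAT3_HMGN5, 0, 2 and 3.18 CPM in siSTAT3_Vec, and 0.516, 0.649 and 1.29 CPM in NC_Vec. Within each experiment the groups overlapped, and no comparison passed the test (adjusted p of at least 0.556). This is 1 transcript of the gene, and the level of BAX summed over its transcripts was not measured.

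BIRC5 was lower after both knockdowns of the siRNA experiment. It had 11.5 and 6.96 CPM in siHMGN5 and 24.9 and 22.0 CPM in siSTAT3, against 51.3, 58.2, 57.2 and 63.3 CPM in NC. The 3 groups did not overlap, and the 2 NC pairs overlapped each other. The fall was 6.09-fold in siHMGN5 (log2 fold change -2.61 ± 0.23, adjusted p = 0.0048) and 2.41-fold in siSTAT3 (log2 fold change -1.27 ± 0.21, adjusted p = 0.0262). These 2 comparisons share the NC libraries. Set directly against siHMGN5, siSTAT3 exceeded it 2.52-fold (log2 fold change 1.34 ± 0.24, adjusted p = 0.0329).

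The siHMGN5 call of BIRC5 held with NC replicates 1 and 2 alone as controls (-2.54 on the log2 scale, adjusted p = 0.0233) and with NC replicates 3 and 4 alone (-2.67, adjusted p = 0.0141). It also held with any 1 of the siHMGN5 or NC libraries left out. The siSTAT3 call ended without NC replicate 2, 3 or 4, without either NC pair and without either siSTAT3 library, at log2 fold changes of -1.37 to -1.19 (adjusted p 0.0539 to 0.188). The siSTAT3 against siHMGN5 call ended without siHMGN5 replicate 2 (1.01, adjusted p = 0.0762), without siSTAT3 replicate 1 or 2 (1.25 and 1.42, adjusted p = 0.156 and 0.111), and when NC was left out of the fit (adjusted p = 0.107).

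In the lentiviral experiment BIRC5 had 5.22, 0 and 6.5 CPM in siSTAT3_HMGN5 and 8.65, 6.55 and 13.8 CPM in siSTAT3_Vec, against 21.1, 27.6 and 32.4 CPM in NC_Vec. All 6 STAT3 siRNA libraries lay below all 3 NC_Vec libraries. The test was nevertheless not passed for siSTAT3_Vec (log2 fold change -1.49 ± 1.12, adjusted p = 0.488) or siSTAT3_HMGN5 (-2.79 ± 1.18, adjusted p = 0.144) against NC_Vec. Replicate 2 of siSTAT3_HMGN5 was listed at 0, beside 116 and 147 estimated reads in the other two libraries of its group. Without that library, siSTAT3_HMGN5 against NC_Vec was called (log2 fold change -2.20, adjusted p = 0.00866), and with only siSTAT3_Vec and NC_Vec in the fit, siSTAT3_Vec was called (log2 fold change -1.48, adjusted p = 0.0349). DESeq2 also called siSTAT3_HMGN5 against NC_Vec (adjusted p = 0.0421). Ectopic HMGN5 gave a log2 fold change of -1.30 ± 1.13 against siSTAT3_Vec (adjusted p = 0.728).

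**Figure D2:**
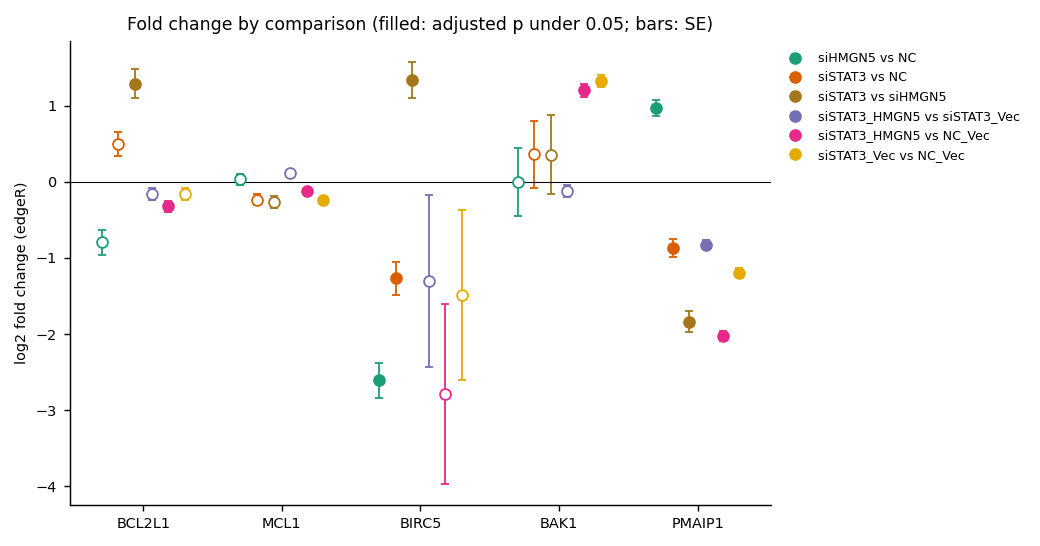
Log2 fold change (edgeR, vertical axis) of the 5 transcripts with reads in nearly all libraries, in 6 comparisons set apart by colour; bars are SE and filled points have an adjusted p under 0.05. PMAIP1 is filled in all 6 comparisons, positive in siHMGN5 against NC (0.97) and negative in the other 5, and BAK1 is filled in both STAT3 siRNA groups of the lentiviral experiment against NC_Vec.

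BCL2L1, the gene of BCL-XL, separated the 2 knockdowns from each other. It had 119 and 96.8 CPM in siHMGN5 and 257 and 272 CPM in siSTAT3, against 224, 207, 167 and 165 CPM in NC. The siHMGN5 libraries lay below and the siSTAT3 libraries above all NC libraries. siSTAT3 was 2.44-fold higher than siHMGN5 (log2 fold change 1.29 ± 0.19, adjusted p = 0.0181), a call that ended when any of the 4 libraries compared was left out (1.14 to 1.44, adjusted p 0.0706 to 0.114). Against NC, neither siHMGN5 (log2 fold change -0.80 ± 0.17, adjusted p = 0.061) nor siSTAT3 (0.49 ± 0.16, adjusted p = 0.176) passed the test. Against each NC pair alone, siHMGN5 was called with log2 fold changes of -0.98 (replicates 1 and 2, adjusted p = 0.0276) and -0.59 (replicates 3 and 4, adjusted p = 0.0497). siSTAT3 was called only against NC replicates 3 and 4 (0.68, adjusted p = 0.0357), and had 0.31 against replicates 1 and 2 (adjusted p = 0.242). DESeq2 called both against NC (adjusted p = 4.64e-05 in siHMGN5 and 0.0249 in siSTAT3).

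In the lentiviral experiment BCL2L1 had 297, 328 and 276 CPM in siSTAT3_HMGN5 and 339.5, 326.5 and 344 CPM in siSTAT3_Vec, against 386, 347 and 396 CPM in NC_Vec. Each STAT3 siRNA library lay below the NC_Vec libraries, and the ranges of siSTAT3_HMGN5 and siSTAT3_Vec overlapped. siSTAT3_HMGN5 was 1.25-fold lower than NC_Vec (log2 fold change -0.32 ± 0.07, adjusted p = 0.0179), while siSTAT3_Vec did not pass the test (-0.16 ± 0.07, adjusted p = 0.224), nor did siSTAT3_HMGN5 against siSTAT3_Vec (-0.16 ± 0.07, adjusted p = 0.353). The call against NC_Vec ended without NC_Vec replicate 1 or 3, and without siSTAT3_HMGN5 replicate 1 (adjusted p 0.0518 to 0.059). The STAT3 siRNA effect on BCL2L1 differed between experiments by 0.63 ± 0.17 on the log2 scale, siRNA minus lentiviral, at an adjusted p of 0.0497, just inside the threshold (edgeR, 17 libraries), and this call ended in 12 of 17 alternatives.

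MCL1, the other guardian, gave no call in the siRNA experiment with all libraries. It had 259 and 263 CPM in siHMGN5 and 226 and 209.6 CPM in siSTAT3, against 254, 245, 270.2 and 272 CPM in NC. The siHMGN5 libraries lay inside the range of NC and the siSTAT3 libraries below it. The log2 fold changes were 0.03 ± 0.07 in siHMGN5 (adjusted p = 0.913) and -0.24 ± 0.07 in siSTAT3 (adjusted p = 0.145). Against NC replicates 3 and 4 alone, siSTAT3 was called (-0.31, adjusted p = 0.0372), as it was by DESeq2 with all NC libraries (adjusted p = 0.0026). Against the other NC pair alone, siSTAT3 was not called (-0.18, adjusted p = 0.143), nor was it called in any other alternative.

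In the vector cells MCL1 was called lower with STAT3 siRNA. It had 385, 391 and 401 CPM in siSTAT3_HMGN5 and 361, 371 and 355 CPM in siSTAT3_Vec, against 434, 424 and 426 CPM in NC_Vec. The 3 groups did not overlap, with siSTAT3_HMGN5 between the other two. siSTAT3_Vec was 1.18-fold lower than NC_Vec (log2 fold change -0.24 ± 0.03, adjusted p = 0.00173), a call that held in all 11 alternatives. siSTAT3_HMGN5 was 1.09-fold lower than NC_Vec (-0.12 ± 0.03, adjusted p = 0.0231), and that call ended without a filter on low counts and without NC_Vec replicate 1 or siSTAT3_HMGN5 replicate 1 or 2 (adjusted p 0.0573 to 0.0764). The log2 difference between siSTAT3_HMGN5 and siSTAT3_Vec was 0.12 ± 0.03 and was not called (adjusted p = 0.0942; DESeq2 adjusted p = 0.000131). The STAT3 siRNA effect on MCL1 was -0.02 ± 0.07 apart between the experiments (adjusted p = 1.0).

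**Figure D3:**
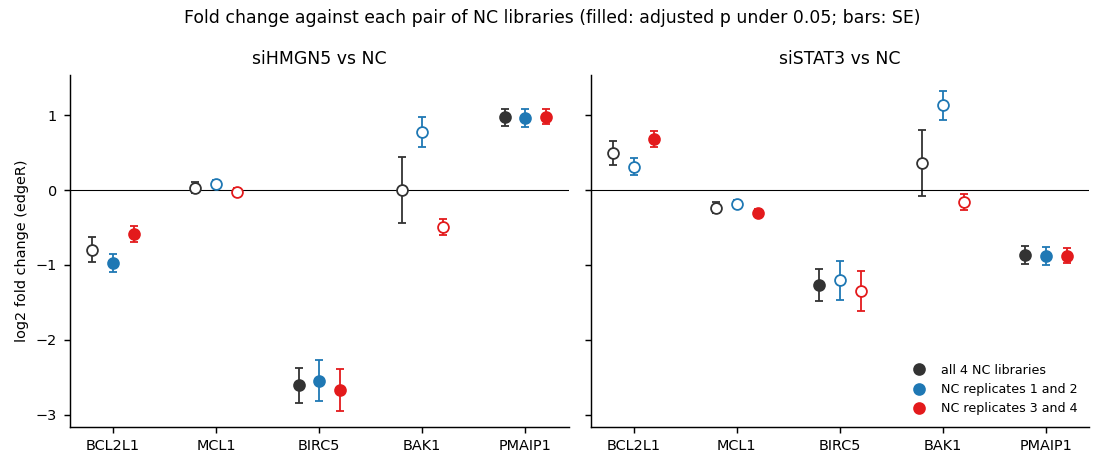
Log2 fold change (edgeR, vertical axis) of 5 transcripts in siHMGN5 (left) and siSTAT3 (right) against all 4 NC libraries, NC replicates 1 and 2, or NC replicates 3 and 4, set apart by colour; bars are SE and filled points have an adjusted p under 0.05. The values of PMAIP1 and BIRC5 keep their size against either pair, while BAK1 changes sign (0.77 and -0.50 in siHMGN5).

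Counted over the 7 members, 2 passed the test in siHMGN5 against NC (PMAIP1 higher, BIRC5 lower), where 3.39% of 74346 transcripts did, with a median log2 fold change of -0.80 over the members and -0.0017 over all transcripts. In siSTAT3 against NC 2 passed (PMAIP1 and BIRC5, both lower), against 4.28% of all transcripts, with medians of -0.87 over the members and 0.0 over all. With BCL2L11 set at the floor of 3 reads a library, the members' median stayed at -0.87. BCL2L11 was the lowest member either way, so that setting could not move the median. In siSTAT3 against siHMGN5 3 passed (BCL2L1 and BIRC5 higher, PMAIP1 lower), against 3.89%, with medians of 0.03 and 0.0. In siSTAT3_Vec against NC_Vec 3 passed (BAK1 higher, PMAIP1 and MCL1 lower), against 14.3% of 69768 transcripts, with medians of -0.16 and 0.0168. In siSTAT3_HMGN5 against siSTAT3_Vec PMAIP1 alone passed, 1 of 7, against 3.77%, with medians of -0.83 and -0.0059. That -0.83 is the value of PMAIP1. Below it lay BIRC5, BAX and BCL2L11, each listed at 0 in at least 1 siSTAT3_HMGN5 library. BCL2L1, MCL1 and BAK1 had -0.16, 0.12 and -0.13. In siSTAT3_HMGN5 against NC_Vec 4 passed (BAK1 higher, BCL2L1, MCL1 and PMAIP1 lower), against 22.3%, with medians of -0.46 and 0.015. That -0.46 is the value of BCL2L11 (SE 2.465), listed at 0 in 2 of the 3 siSTAT3_HMGN5 libraries. For the STAT3 siRNA effect set between the experiments 1 passed (BCL2L1), against 5.51% of 86839 transcripts, with medians of -0.02 and -0.0631. With 7 members, chosen with earlier results of these data known, nothing is read from these counts or medians about the family as a set.

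Ratios within a library do not depend on its scaling, and 3 were taken of per-length levels of 1 transcript a gene, with no test. Protein levels were not part of the data used. The ratio of the effector BAK1 to the guardian BCL2L1 was 0.385 to 0.469 in siSTAT3_HMGN5 and 0.412 to 0.435 in siSTAT3_Vec, against 0.134 to 0.167 in NC_Vec. The 2 groups with STAT3 siRNA overlapped each other and lay apart from NC_Vec. In the siRNA experiment the ratio was 0.326 and 0.349 in siHMGN5 and 0.173 and 0.18 in siSTAT3, and ran from 0.0865 to 0.325 over the NC libraries. Both siSTAT3 libraries lay between the 2 NC pairs, above replicates 1 and 2 and below replicates 3 and 4. Both siHMGN5 libraries lay just above all NC libraries. Over the other guardian, MCL1, the ratio of BAK1 was 0.492 to 0.546 in siSTAT3_HMGN5 and 0.583 to 0.624 in siSTAT3_Vec, against 0.191 to 0.226 in NC_Vec, with no overlap. It was 0.197 to 0.231 in siHMGN5 and 0.302 to 0.355 in siSTAT3, against 0.113 to 0.31 in NC. Here siSTAT3 lay above siHMGN5, the other way round from the ratio over BCL2L1. The siHMGN5 libraries lay between the 2 NC pairs. The siSTAT3 libraries lay above NC replicates 1 and 2 and overlapped NC replicates 3 and 4. The PMAIP1 to MCL1 ratio was 0.0766 to 0.0797 in siSTAT3_HMGN5, 0.148 to 0.156 in siSTAT3_Vec and 0.279 to 0.293 in NC_Vec, with no overlap. It was 0.33 and 0.365 in siHMGN5 and 0.117 and 0.119 in siSTAT3, against 0.171 to 0.2 in NC, again with no overlap.

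**Figure D4:**
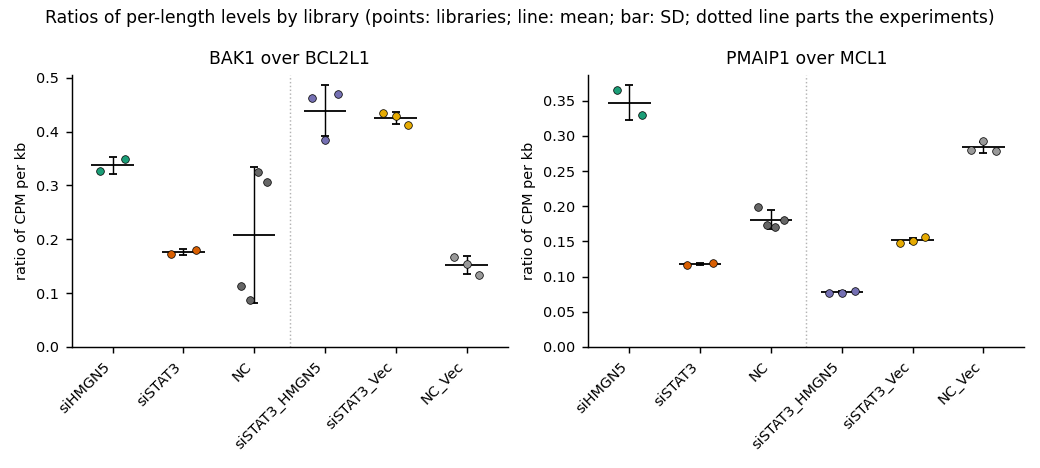
Ratio of CPM per kb of effective length (vertical axes from 0) of BAK1 over BCL2L1 (left) and PMAIP1 over MCL1 (right), with 1 point a library, the mean as a line and the SD as a bar. The PMAIP1 ratio is lowest in siSTAT3_HMGN5 (0.0766 to 0.0797) and highest in siHMGN5 (0.33 and 0.365). The BAK1 ratio of NC spans 0.0865 to 0.325, with replicates 1 and 2 below replicates 3 and 4.

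Among the 15855 other transcripts that averaged 10 CPM or more, the one whose log2 level (pseudocount 0.5 CPM) followed BCL2L1 most closely over the 17 libraries was ENST00000053468.3 (Pearson r = 0.974). It averaged 52.2 CPM in siHMGN5, 118 in siSTAT3 and 82.3 in NC, and 127 CPM in siSTAT3_HMGN5, 126 in siSTAT3_Vec and 135 in NC_Vec. For MCL1 it was ENST00000470541.6 (r = 0.975), with 65.7, 57.1 and 69.5 CPM in siHMGN5, siSTAT3 and NC and 137.5, 132 and 172 CPM in siSTAT3_HMGN5, siSTAT3_Vec and NC_Vec. For BIRC5 it was ENST00000394622.6 (r = 0.945), at 10.5 CPM in siHMGN5, 16.96 in siSTAT3 and 22.7 in NC, and at 4.87 CPM in siSTAT3_HMGN5, 7.56 in siSTAT3_Vec and 21.8 in NC_Vec. The tables used here give no gene names for these 3 IDs. The 17 points share the 2 experiments, between which BCL2L1, MCL1 and BIRC5 differ in level, so the correlations describe likeness only.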

How the data were processed

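Poly(A) RNA-seq tables of 17 libraries were used. Each deposited table lists length, effective length, TPM and estimated read counts per Ensembl transcript, per the file headers. The expected counts deposited by the authors need not be whole. The deposited TPM values, scaled by the authors to 1 total a library, were not used; levels between genes are CPM per kb of effective length. Salmon 1.4.0, CASAVA, Bowtie2, HOMER, GRCh38 and hg38 are named per the submitters' processing notes; Salmon's options and the transcript release are not given in the sources used here. Shared reads are divided between transcripts in the authors' estimates, and strand handling is not stated, so overlapping and antisense transcripts may trade reads.

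Counts were rounded and fitted in edgeR 4.0.16 (R 4.3.3; TMM, filterByExpr, glmQLFit, glmQLFTest on group means), with the 8 siRNA and 9 lentiviral libraries apart and Benjamini-Hochberg adjustment over all transcripts tested (threshold 0.05). SE was derived from the log2 fold change and the F statistic of each test. The difference between experiments is an interaction contrast over 17 libraries. Alternatives were DESeq2 1.42.0, RLE scaling, no filter, only the compared groups and a replicate block. Each library of the compared groups and each NC pair were also left out in turn. The script was tested on simulated data. The named transcripts are the 7 members and the most similar transcript of BCL2L1, MCL1 and BIRC5. The lists of other apoptosis genes, cell line markers and the check of STAT3 and HMGN5 were planned and not run, since no table used here pairs transcript IDs with symbols. The members, lists and ratios were chosen with earlier results of these data known. Names of the 7 IDs come from the selection list, and promoter sequences from RefSeq (GRCh38.p14).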

Additional observations from a re-analysis of the deposited data

Results flagged for a closer look

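The STAT3 siRNA effect on BCL2L1 differed between the experiments by the interaction test. The log2 fold change was 0.63 more positive in the siRNA experiment than in the lentiviral one (edgeR, adjusted p = 0.0497). The 2 siSTAT3 libraries lay above all 4 NC libraries, and the 3 siSTAT3_Vec libraries lay below all 3 NC_Vec libraries. The call ended in 12 of 17 alternatives, and the differences ran from 0.46 to 0.83 over all 17. Both ends came from leaving out an NC pair. Without NC replicates 1 and 2 the call held (0.83, edgeR adjusted p = 0.00161). Without NC replicates 3 and 4 it ended (0.46, edgeR adjusted p = 0.0767), so the size depended on the NC pair kept. Presence of a vector and the experiment change together and cannot be told apart. No NC value of the 7 members stood apart from the other 3 by Dixon's test, and the other groups are too small for it. That test looks for 1 lone value and does not detect a split into 2 pairs, as seen for BAK1 in NC.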

How the results depend on the processing

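Of the 15 calls among 42 member values in the 6 group comparisons, 7 stayed past the threshold in every alternative run: PMAIP1 in 4 comparisons (siSTAT3 against siHMGN5 and the 3 lentiviral ones), BAK1 in siSTAT3_Vec and siSTAT3_HMGN5 against NC_Vec, and MCL1 in siSTAT3_Vec against NC_Vec. With the difference between experiments there were 16 calls among 49 values. No called value changed sign in 184 refits of these 16, and 45 refits fell short of the threshold; 21 of 409 refits of uncalled values passed it. The cause was not tested, except that leaving out a library of a group of 2 leaves 1.

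With DESeq2 the number of members called was 5 in siSTAT3 against NC (from 2), 5 in siSTAT3 against siHMGN5 (from 3), 2 in siSTAT3_HMGN5 against siSTAT3_Vec (from 1) and 3 for the difference between experiments (from 1). With a replicate block it was 0 in siHMGN5 and 0 in siSTAT3 against NC (from 2 each) and 2 in siSTAT3_HMGN5 against NC_Vec (from 4), and it changed by at most 1 member in the other 3. Deviations of same-numbered libraries from their group means correlated at -0.073 to 0.067, so no shared deviation by replicate number was seen. These values do not settle whether same-numbered libraries were prepared together. In groups of 2 the deviations mirror each other, and in NC they also hold the split into pairs. NC replicates 3 and 4 drop out of the block. Calls ended under it for BIRC5 (adjusted p = 0.0658) and PMAIP1 (0.0572) in siHMGN5 and BIRC5 (0.146) and PMAIP1 (0.0541) in siSTAT3 against NC, BIRC5 in siSTAT3 against siHMGN5 (0.114), and BCL2L1 (0.0602) and MCL1 (0.0623) in siSTAT3_HMGN5 against NC_Vec. Without NC replicates 3 and 4 it was 1 in siSTAT3 against NC and 0 for the difference; without NC replicates 1 and 2 the difference had 2, and with no filter 0. Leaving out 1 library gave 1 to 2 in siHMGN5 against NC, 0 to 2 in siSTAT3 against NC, 1 to 2 in siSTAT3 against siHMGN5, 2 to 4 in siSTAT3_HMGN5 against NC_Vec and 0 to 2 for the difference.

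All sign changes were of values not called. Without NC replicates 1 and 2, siHMGN5 against NC gave -0.020 for MCL1 and -0.50 for BAK1, and siSTAT3 against NC gave -0.16 for BAK1. Without NC replicates 3 and 4 the difference for MCL1 was 0.044. With no filter BAK1 was -0.0088 in siHMGN5 against NC. With the block BAX was -0.083 in siSTAT3 against siHMGN5 and -0.16 in siSTAT3_Vec against NC_Vec. Leaving out 1 library, BAK1 in siHMGN5 against NC ran from -0.23 to 0.24, BAX in siSTAT3 against siHMGN5 from -0.37 to 0.41, BCL2L11 in siSTAT3_HMGN5 against NC_Vec from -9.88 (with both libraries left at 0, so set by the prior count) to 0.15, and the difference from -0.080 to 0.032 for MCL1 and -0.029 to 0.54 for BIRC5. BCL2L11 had no value in siSTAT3 against siHMGN5 without siHMGN5 replicate 1, since no reads were left.

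Over all transcripts, siHMGN5 against NC had 2521 calls, and 9891 with DESeq2, 1638 with no filter, 902 with the block, 1448 with only the compared groups, 6249 without NC replicates 1 and 2, and 551 to 1838 leaving out 1 library. siSTAT3 against NC had 3181, and 10602, 1622 with the block, 6259 without NC replicates 1 and 2, and 775 to 2349. siSTAT3 against siHMGN5 had 2893, and 10178 with DESeq2 and 844 to 972. siSTAT3_Vec against NC_Vec had 9953, and 16965 with DESeq2. siSTAT3_HMGN5 against siSTAT3_Vec had 2631, and 8078 with DESeq2, 1627 with no filter, 1156 with the block and 1190 to 1668. The difference had 4784, and 10995 with DESeq2, 9318 without NC replicates 1 and 2 and 3061 to 5393.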
